A study of Rattus norvegicus with 3 samples.

Results

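Heme oxygenases and genes of the NRF2 antioxidant response were followed in rat retina after pressure-induced ischemia. The set was named gene by gene and held 10 symbols: Hmox1, Hmox2 and Blvrb of heme breakdown, the transcription factor gene Nfe2l2, and Nqo1, Gclc, Gclm, Slc7a11, Txnrd1 and Srxn1 of the wider antioxidant programme. Of these, 9 had a row among the 32883 genes tabulated for each library, and Srxn1 was not analysed here. RNA depleted of ribosomal RNA was sequenced from retinas of Sprague-Dawley rats at postnatal day 60, in 3 libraries with 1 library per group. HIOP_GSK was retina from eyes that received a drug, named only as GSK, in the anterior chamber 24 h before the pressure in the eye was held at 110 mmHg for 60 min. HIOP (high intraocular pressure) was retina taken 12 h after the same ischemic procedure without the drug. CTL carries a label of no treatment, although a sham group is described in the protocol whose anterior chamber was cannulated at 2.66 kPa. No vehicle-injected eye is labelled among the 3 libraries, and the number of animals per library is not given, so an effect of the injection and an effect of the drug cannot be told apart.

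Heme oxygenase opens the heme ring and releases iron, carbon monoxide and biliverdin, which biliverdin reductases turn into bilirubin. Hmox1 encodes the inducible enzyme and Hmox2 the constitutive enzyme of neurons. NRF2, the product of Nfe2l2, is held back by KEAP1 until oxidants or electrophiles modify that protein. It then enters the nucleus, pairs with a small MAF protein and activates genes that carry an antioxidant response element. BACH1 occupies the same elements as a repressor and is displaced by heme, and Hmox1 is the best known gene under its control. In retina, heme oxygenase 1 is known from stressed Müller glia and from infiltrating phagocytes.

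The core of the antioxidant response element, TGACNNNGC, was searched on both strands in RefSeq windows running from 250 bases before to 50 bases after each transcript start (assembly GRCr8). A promoter entry was matched by symbol for 9 of the 10 genes, in 11 windows, because Hmox2 and Txnrd1 have more than 1 start. Hmox1 has no entry. The core was present in 4 of these 11 windows and in 12.1% of all 33469 windows of the same length. The AP-1 motif TGAGTCA can overlap the element core, and its reverse complement TGACTCA was searched as well. Either form of this motif was present in 4.63% of all windows and, among the 9 genes with an entry, only in that of Srxn1. The 250 bases upstream of the start are shown for the 3 genes with a core match there, in lower case with the match in capitals, because Gclm, Txnrd1 and Hmox2 lay at quite different places in the response described next. All 3 matches read on the opposite strand as the core, that is as GCNNNGTCA.
Gclm, chr2:213031885-213032134, plus strand: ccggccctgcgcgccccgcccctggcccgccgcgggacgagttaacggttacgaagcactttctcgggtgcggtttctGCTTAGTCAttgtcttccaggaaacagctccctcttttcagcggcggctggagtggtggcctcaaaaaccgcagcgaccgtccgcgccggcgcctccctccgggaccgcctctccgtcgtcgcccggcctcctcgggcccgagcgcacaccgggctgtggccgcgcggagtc
Txnrd1, chr7:22755905-22756154, minus strand: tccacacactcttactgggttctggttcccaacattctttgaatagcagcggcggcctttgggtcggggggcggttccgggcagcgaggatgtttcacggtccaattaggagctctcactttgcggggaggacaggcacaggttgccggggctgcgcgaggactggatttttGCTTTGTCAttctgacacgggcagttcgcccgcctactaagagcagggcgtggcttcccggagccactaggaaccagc
Hmox2, chr10:11337613-11337862, minus strand: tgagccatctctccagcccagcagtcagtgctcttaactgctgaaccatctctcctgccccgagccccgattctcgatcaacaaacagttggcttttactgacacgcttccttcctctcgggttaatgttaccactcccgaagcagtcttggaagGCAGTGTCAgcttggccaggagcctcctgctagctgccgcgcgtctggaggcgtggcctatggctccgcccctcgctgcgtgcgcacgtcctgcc
The match of Gclm began 172 bases upstream of the start, that of Txnrd1 78 bases and that of Hmox2 95 bases upstream. In Nfe2l2 the core lay 38 bases after the start, and the windows of Nqo1, Gclc, Slc7a11 and Blvrb held neither motif. A match describes letters in the window only, and which start the retina used was not tested. Sequence outside the windows was not searched, so a window without a match does not show that the gene lacks the element.

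The deposited counts summed to 15132754 in HIOP_GSK, 17221510 in HIOP and 16090064 in CTL. A gene was compared when its CPM (the count relative to library size, scaled with TMM factors) reached 1 in at least 1 library, which 15543 genes and all 9 analysed members did. No test is possible with 1 library per group. Differences are ratios of scaled counts with an exact Clopper-Pearson 95% interval from the counts, which covers counting error only and not the variation between animals. Genes whose log2 CPM ratio was at least 1 in size, which is 2-fold, are counted as called higher or called lower below. Elsewhere, higher or lower only describes the ratio given with it. The retinal label was checked on 6 rod photoreceptor genes, which summed to 14828 CPM in HIOP_GSK, 22934 in HIOP and 23793 in CTL. These genes went both ways in HIOP over CTL, with 2 log2 ratios above 0 and 4 below. Among them, Nrl, the transcription factor of rods, had 3667 counts in HIOP_GSK, 5978 in HIOP and 7475 in CTL. The lens list, 8 genes, summed to 10551 CPM in HIOP_GSK, 2891 in HIOP and 1071 in CTL, and the list of surface epithelium, 5 genes, to 52.0, 10.4 and 194 CPM in that order of libraries. Markers of neighbouring tissue thus differed between the libraries, and their part in the results was not tested.

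Among the genes of heme breakdown, Hmox1 stood far above its control level after ischemia, while Hmox2 and Blvrb did not. Hmox1 had 5363 counts in HIOP_GSK, 3654 in HIOP and 27 in CTL, or 352, 213 and 1.68 CPM. Both ischemic libraries were high and the drug-treated library was the higher of them. The ratio was 127 in HIOP over CTL (87.3 to 193), 1.65 in HIOP_GSK over HIOP (1.58 to 1.72) and 210 in HIOP_GSK over CTL (144 to 319). By log2 CPM ratio, Hmox1 ranked 23 from the top among the 15543 genes in HIOP over CTL, and its rank in HIOP_GSK over CTL was 2.

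Hmox2 had 567 counts in HIOP_GSK, 615 in HIOP and 600 in CTL. Its ratio was 0.964 in HIOP over CTL (0.860 to 1.08), 1.04 in HIOP_GSK over HIOP (0.924 to 1.16) and 0.9997 in HIOP_GSK over CTL (0.890 to 1.12), so each interval held no difference. Blvrb, a biliverdin reductase that also reduces flavins, had 170 counts in HIOP_GSK, 127 in HIOP and 130 in CTL. It did not separate in HIOP over CTL, at a ratio of 0.919 (0.714 to 1.18), and was 1.51-fold above HIOP in HIOP_GSK (1.19 to 1.91). Blvra, the other biliverdin reductase gene, had 153 counts in HIOP_GSK, 181 in HIOP and 200 in CTL.

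Levels of different genes were compared on the deposited TPM, which takes transcript length into account. Hmox1 was at 358 TPM in HIOP_GSK, 213 TPM in HIOP and 1.90 TPM in CTL, against 28.4, 26.9 and 33.0 TPM for Hmox2 in the same libraries. The TPM of Hmox1 was 12.6 times that of Hmox2 in HIOP_GSK and 7.92 times in HIOP, whereas in CTL Hmox2 was 17.4 times Hmox1. The order of the heme oxygenase transcripts was thus inverted in both ischemic libraries. Hmox1 ranked 204 by TPM among all genes in HIOP_GSK, 339 in HIOP and 12410 in CTL. It made up 61.2% of the summed TPM of the 9 genes in HIOP_GSK, 49.3% in HIOP and 1.39% in CTL. In CTL, Hmox2 led the order of levels and Hmox1 was last, and in the ischemic libraries Hmox1 led and Blvrb was last. Without replicates, neighbours in these orders cannot be separated by a spread.

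**Figure D1:**
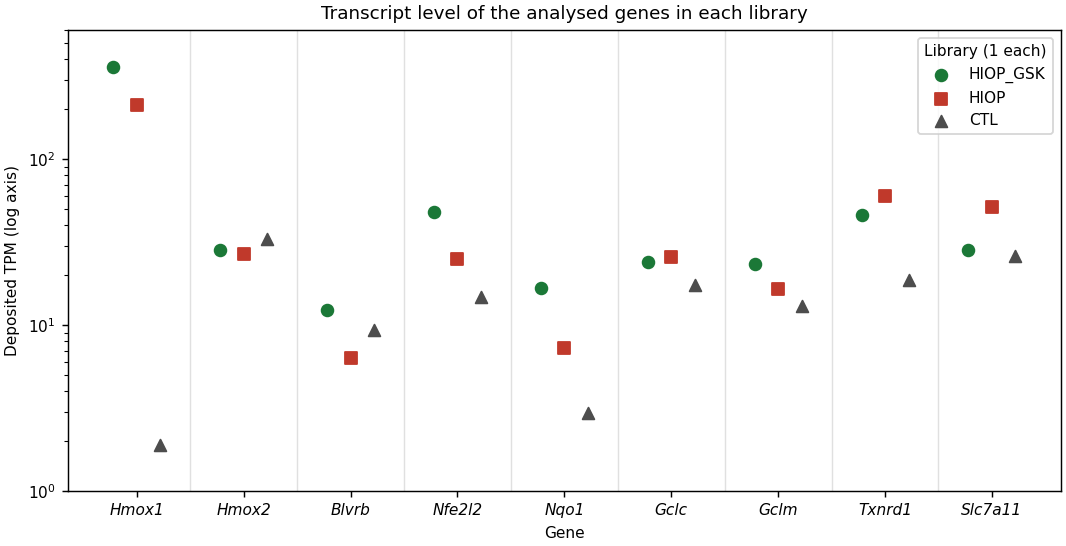
Deposited TPM (log axis) of each of the 9 analysed genes, with 1 point per library in the order HIOP_GSK, HIOP and CTL. Hmox1 lies at 358 and 213 TPM in HIOP_GSK and HIOP and at 1.90 TPM in CTL, while the other 8 genes stay between 2.93 and 59.7 TPM.

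Nfe2l2, which encodes NRF2, had 1365 counts in HIOP_GSK, 849 in HIOP and 429 in CTL. Its level was lowest in CTL, and the drug-treated library stood above the library with ischemia alone. The ratio was 1.86 in HIOP over CTL (1.65 to 2.09), short of 2-fold, 1.81 in HIOP_GSK over HIOP (1.66 to 1.97) and 3.37 in HIOP_GSK over CTL (3.02 to 3.76). Nqo1, a quinone reductase that is a standard readout of NRF2 activity, had 258 counts in HIOP_GSK, 135 in HIOP and 45 in CTL, so it took the same order of libraries as Nfe2l2. It was 2.82-fold higher in HIOP than in CTL (1.999 to 4.05) and 2.15-fold above HIOP in HIOP_GSK (1.74 to 2.67), the only member past 2-fold in HIOP_GSK over HIOP. In HIOP_GSK over CTL its ratio was 6.06 (4.41 to 8.52). The TPM of Nqo1 stayed low, at 16.6 in HIOP_GSK, 7.24 in HIOP and 2.93 in CTL.

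The glutathione genes did not move alike. Gclc, the catalytic subunit of glutamate-cysteine ligase, the rate-limiting enzyme of glutathione synthesis, had 995 counts in HIOP_GSK, 1212 in HIOP and 717 in CTL. It was 1.59-fold higher in HIOP than in CTL (1.45 to 1.75), and its ratio in HIOP_GSK over HIOP was 0.924 (0.848 to 1.01), an interval that held no difference. Gclm, the modifier subunit of that enzyme, had 435 counts in HIOP_GSK, 382 in HIOP and 239 in CTL. It was 1.503-fold higher in HIOP than in CTL (1.28 to 1.77) and 1.28-fold above HIOP in HIOP_GSK (1.11 to 1.47), so neither subunit reached 2-fold in these comparisons. The TPM of Gclc over that of Gclm was 1.02 in HIOP_GSK, 1.55 in HIOP and 1.34 in CTL.

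Slc7a11, the cystine transporter subunit xCT that supplies cysteine for glutathione, had 2917 counts in HIOP_GSK, 6084 in HIOP and 2599 in CTL. It was high in HIOP alone, and HIOP_GSK lay close to CTL. The ratio was 2.20 in HIOP over CTL (2.10 to 2.31), 0.539 in HIOP_GSK over HIOP (0.516 to 0.564) and 1.19 in HIOP_GSK over CTL (1.13 to 1.25). On the deposited TPM its log2 ratio in HIOP over CTL was 0.97, just under the 2-fold limit. Slc3a2, the heavy chain that pairs with xCT, had 2975 counts in HIOP_GSK, 3820 in HIOP and 2411 in CTL, and so had the same order of libraries with smaller steps.

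Txnrd1, cytosolic thioredoxin reductase, had 2068 counts in HIOP_GSK, 3103 in HIOP and 876 in CTL. It was 3.33-fold higher in HIOP than in CTL (3.09 to 3.59), second to Hmox1 among the members by ratio. In HIOP_GSK it was lower than in HIOP, at a ratio of 0.750 (0.709 to 0.793), and it remained 2.497-fold above CTL (2.31 to 2.71). In the RefSeq annotation of GRCr8 the span of Txnrd1 overlaps the protein-coding gene Eid3 and lncRNA genes, and that of Hmox1 overlaps the lncRNA gene LOC134483111. Whether counting used strand is not given in the sources used here, and reads of such neighbours cannot be told apart from those of the members.

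**Figure D2:**
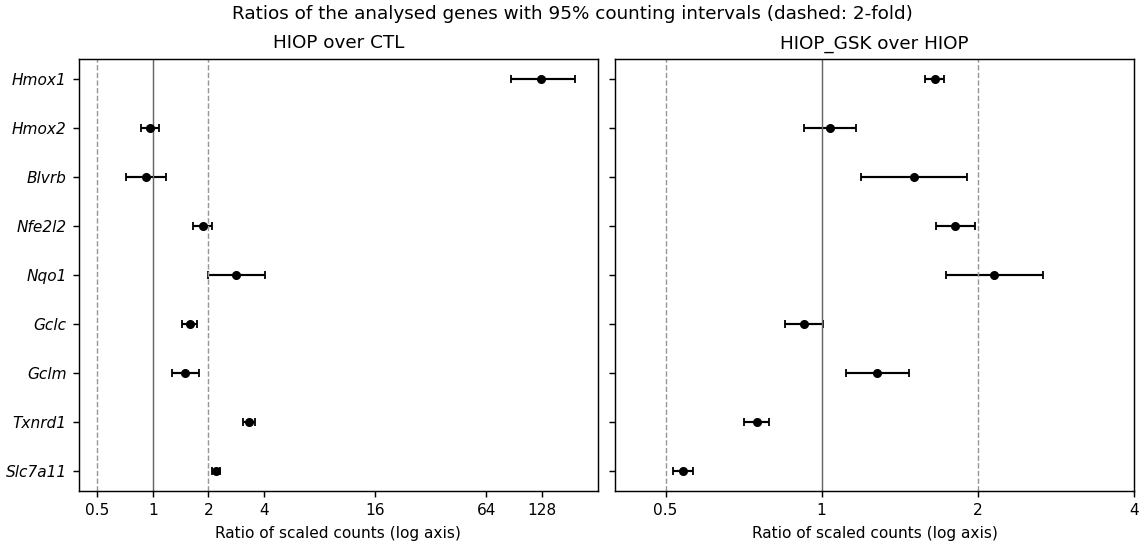
Ratio of scaled counts (log axis) of the 9 genes in HIOP over CTL (left) and HIOP_GSK over HIOP (right), with 95% counting intervals as bars and dashed lines at 2-fold. In HIOP over CTL, Hmox1 at 127 stands apart from the other 8 genes, which lie between 0.919 and 3.33, and in HIOP_GSK over HIOP the ratios run from 0.539 for Slc7a11 to 2.15 for Nqo1.

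In HIOP over CTL, 4 of the 9 genes were called higher (Hmox1, Txnrd1, Nqo1 and Slc7a11) and none lower, against 9.0% higher and 8.04% lower among all 15543 genes compared. The median log2 ratio of the 9 genes was 0.89, and 0.78 without Hmox1, beside 0.00 over all genes. In HIOP_GSK over HIOP, 1 of 9 was called higher and none lower, against 4.56% and 1.69% of all genes. The median there was 0.36, and 0.20 without Hmox1, beside 0.00. In HIOP_GSK over CTL, 4 of 9 were called higher (Hmox1, Nqo1, Nfe2l2 and Txnrd1) and none lower, against 10.4% and 6.32% of all genes. The median was 0.94, and 0.75 without Hmox1, beside 0.00. These comparisons share libraries and are not independent of each other. Whether the set differs from other genes was not tested.

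The ratio of a gene to another within a library does not depend on library scaling. In HIOP over CTL, the count of Hmox1 relative to another member grew least against Txnrd1, by a factor of 38.2 (26.0 to 58.5), and most against Blvrb, by a factor of 138 (86.8 to 225). Relative to Hmox2 the factor was 132 (88.7 to 204), and relative to Nfe2l2 68.3 (45.9 to 106). Hmox1 thus changed more than any of the other 8 genes in HIOP over CTL, beyond counting error in every pair. In HIOP_GSK over HIOP the order was different. Hmox1 grew by a factor of 3.06 relative to Slc7a11 (2.88 to 3.26) and 2.20 relative to Txnrd1 (2.05 to 2.36), and by 0.913 relative to Nfe2l2 (0.829 to 1.01), an interval that held no difference. Relative to Nqo1 the factor was 0.768 (0.616 to 0.954), so Hmox1 grew less than Nqo1 beyond counting error.

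Within the wider response, Nqo1 and Slc7a11 did not separate in HIOP over CTL, where the count of Nqo1 relative to that of Slc7a11 changed by a factor of 1.28 (0.905 to 1.84). In HIOP_GSK over HIOP the same factor was 3.99 (3.21 to 4.97). Nfe2l2 relative to Slc7a11 changed by a factor of 3.35 (3.04 to 3.70) and Gclm relative to Gclc by 1.39 (1.18 to 1.63). In HIOP_GSK over HIOP, then, the counting intervals of Nfe2l2, Nqo1, Hmox1, Blvrb and Gclm lay above 1 and those of Txnrd1 and Slc7a11 below 1. The intervals of Hmox2 and Gclc held no difference. By the 2-fold rule only Nqo1 was called, and the intervals do not cover variation between animals.

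**Figure D3:**
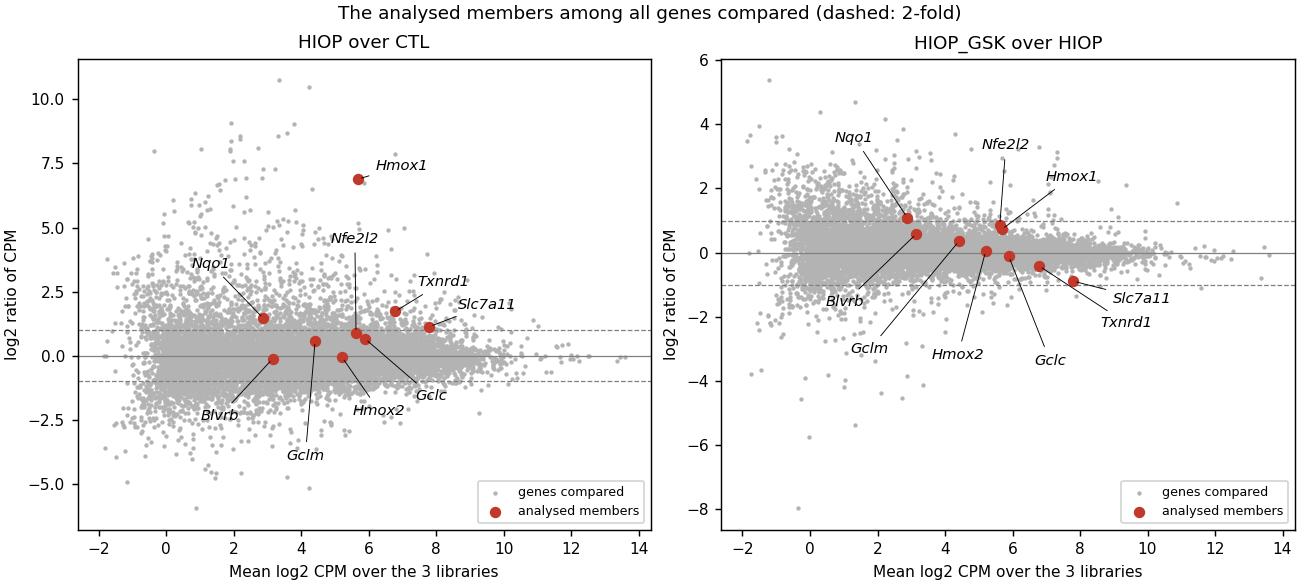
Log2 ratio of CPM against mean log2 CPM over the 3 libraries for the 15543 genes compared (grey) and the 9 analysed genes (red), in HIOP over CTL (left) and HIOP_GSK over HIOP (right), with dashed lines at 2-fold. Hmox1 lies at 6.89 in the left panel, and in the right panel the members spread from -0.89 for Slc7a11 to 1.09 for Nqo1.

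Other genes of the pathways were taken from 7 lists that held 109 further genes, of which 105 were matched and 98 passed the filter on low counts. In HIOP over CTL, 16 of these 98 (16.3%) were called higher and 6 lower, against 9.0% and 8.04% of all genes. Their median log2 ratio was 0.14. In HIOP_GSK over HIOP, 11 (11.2%) were called higher and 1 lower, against 4.56% and 1.69% of all genes, with a median of 0.15. Both medians lay nearer to that of all genes than the medians of the members did, while both shares called higher exceeded those of all genes. The same shares of all genes stand beside the lists and markers below. For HIOP_GSK over CTL they were 10.4% higher and 6.32% lower. Whether any list differs from other genes was not tested.

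Of the 14 other genes of heme handling and iron export, 3 were called higher in HIOP than in CTL and 1 lower (median log2 ratio 0.32). Fth1, the ferritin heavy chain that stores the iron released from heme, had 13250 counts in HIOP_GSK, 8632 in HIOP and 3930 in CTL, a ratio of 2.07 in HIOP over CTL (1.99 to 2.15) and 1.73 in HIOP_GSK over HIOP (1.68 to 1.77). Ftl1, the light chain, had 4153 counts in HIOP_GSK, 2059 in HIOP and 1125 in CTL and was 2.27-fold above HIOP in HIOP_GSK (2.15 to 2.39). The log2 ratio of Fth1 in HIOP over CTL was 0.83 on the deposited TPM, under the 2-fold limit. Both ferritin genes had the order of libraries of Hmox1, and ferritins have many pseudogene copies, so the assignment of their reads is uncertain. Cp, the ferroxidase ceruloplasmin, was 4.90-fold higher in HIOP than in CTL (4.69 to 5.13), with 10049 counts in HIOP_GSK, 11901 in HIOP and 2282 in CTL. Tfrc, the transferrin receptor that imports iron, was lower in HIOP than in CTL at a ratio of 0.822 (0.773 to 0.875). Abcg2, a porphyrin exporter, had 36 counts in HIOP_GSK, 31 in HIOP and 77 in CTL, and its log2 ratio of -1.34 in HIOP over CTL was -0.56 on the deposited TPM.

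Among the 15 other regulators of NRF2, 3 were called higher in HIOP than in CTL and none lower (median log2 ratio 0.07), and 1 was called higher in HIOP_GSK over HIOP (median 0.05). The small MAF genes, partners of NRF2 and of BACH1, differed in size of change. Maff had 228 counts in HIOP_GSK, 327 in HIOP and 23 in CTL and was 13.4-fold higher in HIOP than in CTL (8.76 to 21.4). Mafk was 2.41-fold (1.97 to 2.96) and Mafg 1.41-fold higher (1.26 to 1.58) in the same comparison. Keap1 had 759 counts in HIOP_GSK, 743 in HIOP and 675 in CTL, and its ratio in HIOP over CTL was 1.03 (0.931 to 1.15). Bach1 had 327 counts in HIOP_GSK, 406 in HIOP and 267 in CTL and was 1.43-fold higher in HIOP than in CTL (1.22 to 1.67). Trim21, a ubiquitin ligase that also belongs to the interferon response, had 1286 counts in HIOP_GSK, 535 in HIOP and 175 in CTL. Park7, which encodes the redox-sensitive protein DJ-1, was 1.49-fold higher in HIOP than in CTL (1.39 to 1.60), and Bach2, a relative of Bach1, was 1.83-fold above HIOP in HIOP_GSK (1.53 to 2.20).

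In the glutathione list, 2 of 21 other genes were called higher and 2 lower in HIOP over CTL (median log2 ratio 0.42). Gpx2, a glutathione peroxidase, had 50 counts in HIOP_GSK, 172 in HIOP and 11 in CTL, and so was high mainly in HIOP. Mgst1, a microsomal glutathione transferase, was 3.76-fold higher in HIOP than in CTL (2.97 to 4.80). Gss and Gsr, which complete glutathione synthesis and return the oxidised form to the reduced form, were 1.498-fold (1.304 to 1.72) and 1.38-fold higher (1.23 to 1.56). Gsta4, a transferase for lipid aldehydes, was lower in HIOP at a ratio of 0.431 (0.345 to 0.536). Cbs, the other gene called lower, had 13 counts in HIOP_GSK, 7 in HIOP and 34 in CTL. Gsta1 was 2.06-fold above HIOP in HIOP_GSK (1.89 to 2.24), although alpha class transferases are close paralogs and their counts are uncertain. In the thioredoxin list none of the 13 other genes was called in HIOP over CTL, where the median log2 ratio was 0.24, and none in HIOP_GSK over HIOP, where it was 0.15. In HIOP_GSK over CTL, 3 of the 13 were called higher, Prdx5 at a log2 ratio of 1.27, Txn1 at 1.11 and Txnip at 1.03, and on the deposited TPM only Prdx5 stayed past 2-fold, at 1.22. Txn1, the substrate of Txnrd1, was 1.57-fold higher in HIOP than in CTL (1.38 to 1.78) and 1.38-fold above HIOP in HIOP_GSK (1.24 to 1.53). Prdx1, a peroxiredoxin under NRF2 control, was 1.46-fold higher in HIOP than in CTL (1.35 to 1.58), and Txnip, an inhibitor of thioredoxin, was 1.88-fold above HIOP in HIOP_GSK (1.69 to 2.09). Sesn3 and Txnrd2 went the other way in HIOP over CTL, at ratios of 0.649 (0.616 to 0.682) and 0.632 (0.519 to 0.767). Of the 13 genes, 9 had a log2 ratio above 0 in that comparison and 4 below.

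In the quinone, NADPH and detoxication list, 2 of 16 other genes were called higher and 2 lower in HIOP over CTL (median log2 ratio -0.01), and 3 were called higher in HIOP_GSK over HIOP (median 0.30). Akr1b8, an aldo-keto reductase, had 139 counts in HIOP_GSK, 60 in HIOP and 21 in CTL, the same order as Nqo1, and its log2 ratio in HIOP over CTL was 1.34 on counts and 0.69 on the deposited TPM. Osgin1, a gene induced by oxidised lipids, was 3.13-fold higher in HIOP than in CTL (1.90 to 5.38). Ptgr1, a reductase of reactive aldehydes and prostaglandins, was 2.25-fold above HIOP in HIOP_GSK (1.99 to 2.54). Aldh3a1, a crystallin-like enzyme of the cornea, had 271 counts in HIOP_GSK, 113 in HIOP and 1325 in CTL, which is the order of libraries of the surface epithelium list. Aldh3a1 and Ephx1 were the 2 genes called lower in HIOP over CTL, and Ephx1 had 89 counts in HIOP_GSK, 61 in HIOP and 154 in CTL.

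**Figure D4:**
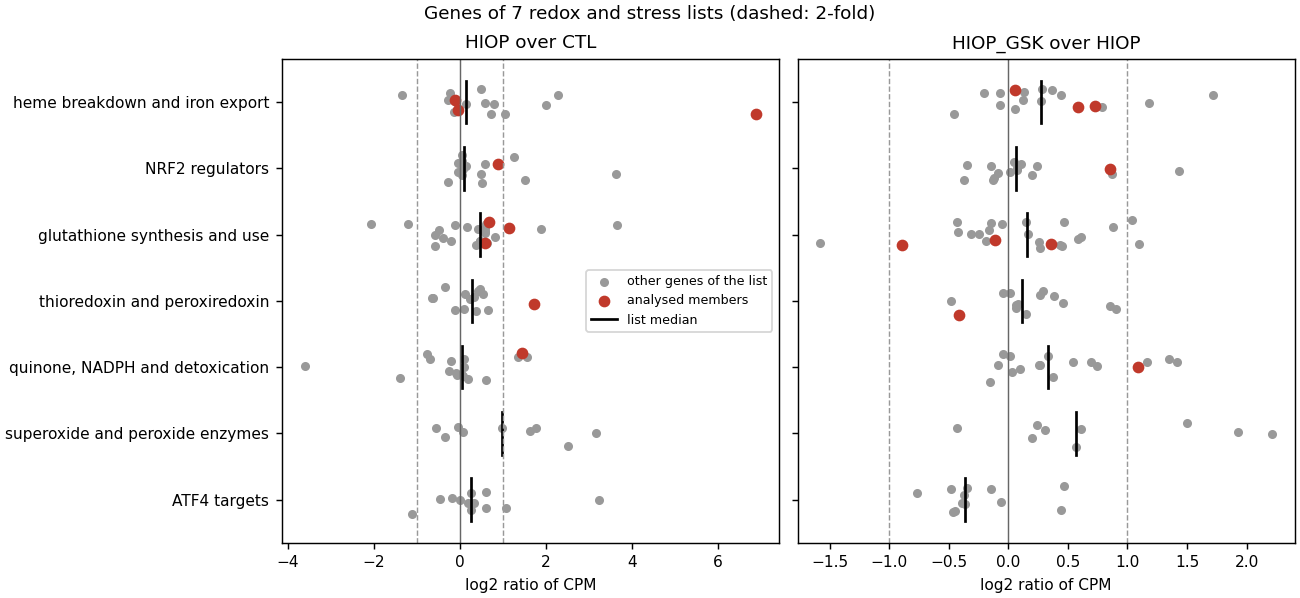
Log2 ratio of CPM for the genes of 7 lists that passed the filter on low counts, in HIOP over CTL (left) and HIOP_GSK over HIOP (right), with the analysed members in red, other genes in grey, list medians as black bars and dashed lines at 2-fold. In HIOP over CTL, Hmox1 at 6.89 lies beyond every other gene drawn. In HIOP_GSK over HIOP the list of ATF4 targets, which also holds Atf4 itself, has a median of -0.36.

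Markers of cells that can hold heme oxygenase 1 or bring heme into the tissue were set beside Hmox1. The 4 matched red blood cell genes summed to 138 CPM in HIOP_GSK, 293 in HIOP and 130 in CTL, and all 4 were called higher in HIOP over CTL on counts but only Hba-a2 on the deposited TPM. The 9 matched microglia and macrophage genes summed to 119 CPM in HIOP_GSK, 41.1 in HIOP and 38.8 in CTL, and 8 of them were called higher in HIOP_GSK over HIOP. These genes went both ways in HIOP over CTL, with 3 called higher and 3 lower. Cd163, Cd68 and Mrc1 were higher at ratios of 4.61, 3.58 and 2.40, and P2ry12, Cx3cr1 and Tmem119 were lower at 0.206, 0.397 and 0.427, of which Mrc1 and Tmem119 were short of 2-fold on the deposited TPM. Among the higher genes, Cd163, the macrophage receptor for hemoglobin-haptoglobin, had 148 counts in HIOP_GSK, 49 in HIOP and 10 in CTL. The 9 matched neutrophil and monocyte genes summed to 157 CPM in HIOP_GSK, 127 in HIOP and 3.98 in CTL, with Mpo at 0 in all libraries, Elane at 0 in HIOP and CTL, Fpr1 at 0 in HIOP_GSK and CTL, and S100a8 and Cxcr2 at 0 in CTL. The 6 Müller glia genes summed to 1639 CPM in HIOP_GSK, 1418 in HIOP and 2875 in CTL. Of these genes, 4 were called lower and none higher in HIOP over CTL (median log2 ratio -1.87). In HIOP_GSK over HIOP, 3 were called higher and none lower (median 0.74). In whole retina, more cells of a type and more RNA per cell cannot be told apart, and the part of these cells in the levels of Hmox1 and the other members was not tested.

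Genes with a pattern like that of Hmox1 were sought by Euclidean distance between pairs of log2 ratios, that of HIOP over CTL joined with that of HIOP_GSK over HIOP. The search covered 13290 genes with at least 10 counts in each of the 3 libraries and a symbol other than a clone or locus identifier. None of these 13290 had a log2 ratio in HIOP over CTL as large as that of Hmox1, so every neighbour had a smaller ratio. Among all 15543 genes compared, however, Hmox1 ranked 23. The genes above it were outside this search, by their counts or their names, so genes near 0 counts in CTL could not be neighbours. The nearest was Socs3, which restrains JAK-STAT signals, at a distance of 1.31, with 1067 counts in HIOP_GSK, 1728 in HIOP and 16 in CTL. Csf2rb, the shared receptor chain of myeloid growth factors, followed at 1.60 with 686 counts in HIOP_GSK, 596 in HIOP and 12 in CTL, and was the only one of the 5 nearest with an interval above 1 in HIOP_GSK over HIOP, at a ratio of 1.29 (1.16 to 1.45). The others were Gbp2, an interferon-induced GTPase, at 1.66, Timp1, an inhibitor of matrix proteases, at 1.86 and Bcl3, a nuclear regulator of NF-kB, at 1.94. With 3 libraries this likeness is a description of few points.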

How the data were processed

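Members, gene lists and tests were chosen with earlier results of these data known. Per the labels' protocols, ribosomal RNA was removed from 3 µg of RNA before directional library preparation. The submitters' processing notes name STAR 2.5.4b, RSEM 1.3.1 and the build Rnor_6.0, with no role for each. The deposited counts are whole, unnormalized numbers per gene and entered every ratio. TPM values, by the authors, sum to the same total in each library. Counts and TPM disagree for some genes. With 20 counts or more, 503, 545 and 566 genes in HIOP_GSK, HIOP and CTL are listed at 0 TPM. With 0 counts, 17, 17 and 19 genes in the same libraries are listed above 1 TPM. Whether both come from the same quantification is not given.

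Counts were scaled with TMM factors of edgeR 4.0.16 (R 4.3.3), 1.01, 0.994 and 1.00 in the same order of libraries. Log2 ratios are differences of log2 CPM (prior count 2), and intervals from the exact binomial distribution (scipy 1.17.1). A gene with several rows was read from the row with most counts. The functions were tested on simulated data. Named genes were all members, 11 fixed partners and, per list, for HIOP over CTL up to 4 genes and for HIOP_GSK over HIOP up to 4, with the interval bound farthest from no difference. Like genes were the 5 nearest to Hmox1. Alternatives were other scaling (DESeq2 1.42.0 size factors among them), TPM, filters, prior counts and fold limits. Sequences are RefSeq's, of GRCr8, matched by symbol, whereas the counts are on Rnor_6.0. Each value rests on 1 library.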

Additional observations from a re-analysis of the deposited data

How the results depend on the processing

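The counts of members past the limit were unchanged under the other scalings, filters and prior counts tried, and the deposited TPM differed only for Slc7a11 in HIOP over CTL (3 members higher instead of 4). At a limit of 3-fold, 2 members were higher for HIOP over CTL, and 0 for HIOP_GSK over HIOP. At 1.5-fold, 3 were higher and 1 lower in HIOP_GSK over HIOP, which follows from the limit itself. No called member changed sign under any alternative, and 210 of 216 single-gene values stayed within their counting intervals. The filter settings cannot change the ratio of a single gene, so their values among the 216 were the same by construction. All 6 values that moved did so on the deposited TPM, for Hmox2, Blvrb, Gclm and Slc7a11. That was the only alternative that used the deposited TPM in place of the counts. The median log2 ratio of the members ran from 0.75 to 0.90 for HIOP over CTL, and for HIOP_GSK over HIOP from 0.35 to 0.49. Over all genes in HIOP_GSK over HIOP, 709 higher and 263 lower became 1448 and 711 without a filter, 336 and 114 at a CPM of 5, and 481 and 153 with a prior count of 10. No paired analysis was possible because each group has 1 library, and for the same reason none could be left out. Genes near 3 counts, 0.197, 0.175 and 0.186 CPM in HIOP_GSK, HIOP and CTL, are at the limit that the depth allows.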

Other observations

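Genes that make or remove superoxide, outside the NRF2 programme, differed between the libraries. Sod2, the mitochondrial superoxide dismutase, had 3556 counts in HIOP_GSK, 5385 in HIOP and 884 in CTL, and was 5.73-fold higher in HIOP than in CTL (5.33 to 6.16). Sod1, the cytosolic enzyme, had 1254 counts in HIOP_GSK, 1230 in HIOP and 1193 in CTL, a ratio of 0.969 in HIOP over CTL (0.894 to 1.05). The genes of the phagocyte NADPH oxidase, which makes superoxide, were highest in HIOP_GSK. Cybb, its catalytic subunit, had 761 counts in HIOP_GSK, 183 in HIOP and 54 in CTL and was 4.68-fold above HIOP in HIOP_GSK (3.98 to 5.53). Ncf1 was 3.86-fold (3.04 to 4.95) and Ncf4 2.89-fold higher (2.16 to 3.91) in the same comparison, in which the summed microglia and macrophage markers were also higher, at 119 CPM in HIOP_GSK and 41.1 CPM in HIOP, and their part was not tested.

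Targets of ATF4, the factor of amino acid stress that also acts on Slc7a11, were listed together with Atf4 itself for comparison with Slc7a11. In HIOP_GSK over HIOP, 10 of these 12 genes, Atf4 among them, had a log2 ratio below 0 and none was 2-fold different. The median was -0.36, beside 0.00 over all genes. Atf4 had 6230 counts in HIOP_GSK, 9058 in HIOP and 5574 in CTL, the order of libraries of Slc7a11. A part of ATF4 in the level of Slc7a11 was not tested. Trib3, a pseudokinase, had 68 counts in HIOP_GSK, 132 in HIOP and 123 in CTL, and Asns, asparagine synthetase, was lower in HIOP_GSK than in HIOP at a ratio of 0.726 (0.668 to 0.790). Psat1, of serine synthesis, went the other way, with 500 counts in HIOP_GSK, 407 in HIOP and 832 in CTL. In HIOP over CTL, 2 of the 12 genes were called higher and 1 lower, and the median log2 ratio was 0.25. Of these log2 ratios, 9 were above 0 and 3 below. The genes called higher were Atf3, an immediate early gene, at a ratio of 9.62 (7.997 to 11.7), and Shmt2 at 2.11 (1.91 to 2.34). Psat1 was the gene called lower, at a ratio of 0.46 (0.408 to 0.518).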
